A study of Mus musculus with 15 samples.

Results

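Colon adenomas of mice fed sulindac plus atorvastatin were compared with adenomas of untreated mice across every gene on the array. The 7 adenoma arrays, 4 labelled as treated tumors and 3 as control tumors, were taken by their sample titles from a series of 15 arrays. The mice were males carrying Apc+/Min-FCCC, a line with an inherited mutant copy of the tumor suppressor Apc, on a C57BL/6J background, and both adenoma groups shared this genotype. Colonoscopy at 6 to 8 weeks of age identified the mice with tumors, which were then randomised to plain chow or to chow with 300 ppm sulindac and 100 ppm atorvastatin for 7 days. Adenoma cells were collected by laser microdissection, and 10 ng of RNA was amplified over 2 rounds before hybridisation. The other 8 arrays held normal colon epithelium of mice given 100 ppm atorvastatin alone, 4 labelled tumor-free and 4 labelled tumor-bearing, and served here as a reference for levels. The study's protocol describes no tumor-bearing arm given atorvastatin alone, and those arrays are named here by their sample labels. No untreated epithelium and no adenoma given a single drug was analysed here, so the effects of the 2 drugs cannot be told apart.

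Sulindac is a nonsteroidal anti-inflammatory drug that blocks the cyclooxygenases Ptgs1 and Ptgs2, which make prostaglandins. Atorvastatin, a statin, blocks the mevalonate pathway, which supplies cholesterol and the prenyl groups that anchor small GTPases in membranes. Loss of Apc leaves beta-catenin free to switch on Wnt target genes, and adenoma cells keep a crypt-like, proliferative program in which fewer cells mature into goblet cells, absorptive colonocytes or hormone-secreting enteroendocrine cells.

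Several arrays of a group were near-identical. Untreated arrays 1 and 2, and treated arrays 2, 3 and 4, made 4 pairs whose log2 differences had an SD of 0.0849 to 0.153, below the spot noise of 0.188 to 0.206. These arrays differed by less than the sampling noise and were counted as 1 sample each, which left 2 untreated and 2 treated samples. Arrays of different samples had SDs of 0.751 to 0.992 inside a treatment group and 0.868 to 1.20 between the treatment groups. Untreated array 3 and treated array 1 are thus each the only array of their sample. Between 59.0% and 69.9% of spots were well above background on an adenoma array. Outlier flags covered 9.12% of the spots of untreated array 2, which left some genes without a value there. Levels below are log2 signals relative to the 75th percentile of their array, which is 0 on this scale. The labels do not say whether near-identical arrays came from the same animal. The p-values measure only the spread between samples counted in this way, those of the epithelium groups included.

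The labelled cell type was checked against 13 epithelial markers, which were above background on every adenoma array. The level of Epcam, an adhesion molecule of epithelial cells, was 5.90, 5.66 and 5.90 on the untreated and 5.72, 5.27, 5.27 and 5.37 on the treated arrays. Both groups lay near the epithelium of tumor-free (5.69) and tumor-bearing mice (5.49). Krt19, a keratin of simple epithelia, was likewise between 5.09 and 6.04 on the 7 arrays. The median difference of the 13 markers was -0.33, and 10 were below 0. Cdx2 and Krt20, which mark intestinal identity and mature colonocytes, lay well below this median, at -5.20 and -3.20. Both are described with the differentiation genes below. Cldn4, also among the 13, read -4.53 on treated array 1, 1.77 to 2.06 on treated arrays 2 to 4 and -0.22 to 0.79 untreated.

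The 60-base probes behind 4 of the genes described below are shown, because Zg16 stands for the secreted goblet cell genes and because the alpha-defensins are a family of near-copies whose probes can share target sequence. Each is written 5′ to 3′ as the array design gives it, and capitals mark the longest run of at least 14 bases that it shares, on the same strand, with the probe of another gene on the array.
Zg16, chr7:123146881-123146940, minus strand, mm7: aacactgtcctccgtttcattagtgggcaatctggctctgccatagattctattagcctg
Defa21, chr8:20088020-20088079, plus strand, mm7: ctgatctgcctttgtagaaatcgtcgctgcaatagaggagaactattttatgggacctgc
Defa22, chr8:20087339-20087398, plus strand, mm7: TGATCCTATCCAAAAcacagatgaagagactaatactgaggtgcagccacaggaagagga
Defa20, chr8:20292296-20292355, plus strand, mm7: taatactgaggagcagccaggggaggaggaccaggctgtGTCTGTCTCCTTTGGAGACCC
The probes of Zg16 and Defa21 shared no such run with another gene's probe. Defa20 shared 21 bases with the probe of Defa31, and Defa22 shared 15 with that of Defa3.

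Among 17644 genes tested with limma, 40 (0.227%) were called at an adjusted p below 0.05. In the treated adenomas 22 were higher (0.125%) and 18 lower (0.102%). They comprised 28 genes with a symbol, 14 in each direction, 3 cDNA clones and 9 probes with no gene name. The median difference of tested genes was 0.05, with quartiles at -0.53 and 0.64. Without adjustment, 2112 genes (12.0%) had a p below 0.05, 1200 of them higher (6.80%) and 912 lower (5.17%). The 7 arrays did not overlap between groups for 7243 genes (41.1%), 4118 higher (23.3%) and 3125 lower (17.7%) in the treated group. Near-identical arrays enter this count separately, and the counts of non-overlapping genes below are to be read against these shares. The median absolute difference between the treatments, taken between means of 2 samples, was 0.587. Between single samples it was 0.533 for the 2 untreated and 0.638 for the 2 treated samples. Means vary less than single samples, so the first value cannot be set directly against the other 2. A comparison of 2 samples with 2 cannot go below an exact two-sided permutation p of 0.333 for a single gene, so each limma p rests on the spread pooled over the epithelium groups as well.

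**Figure D1:**
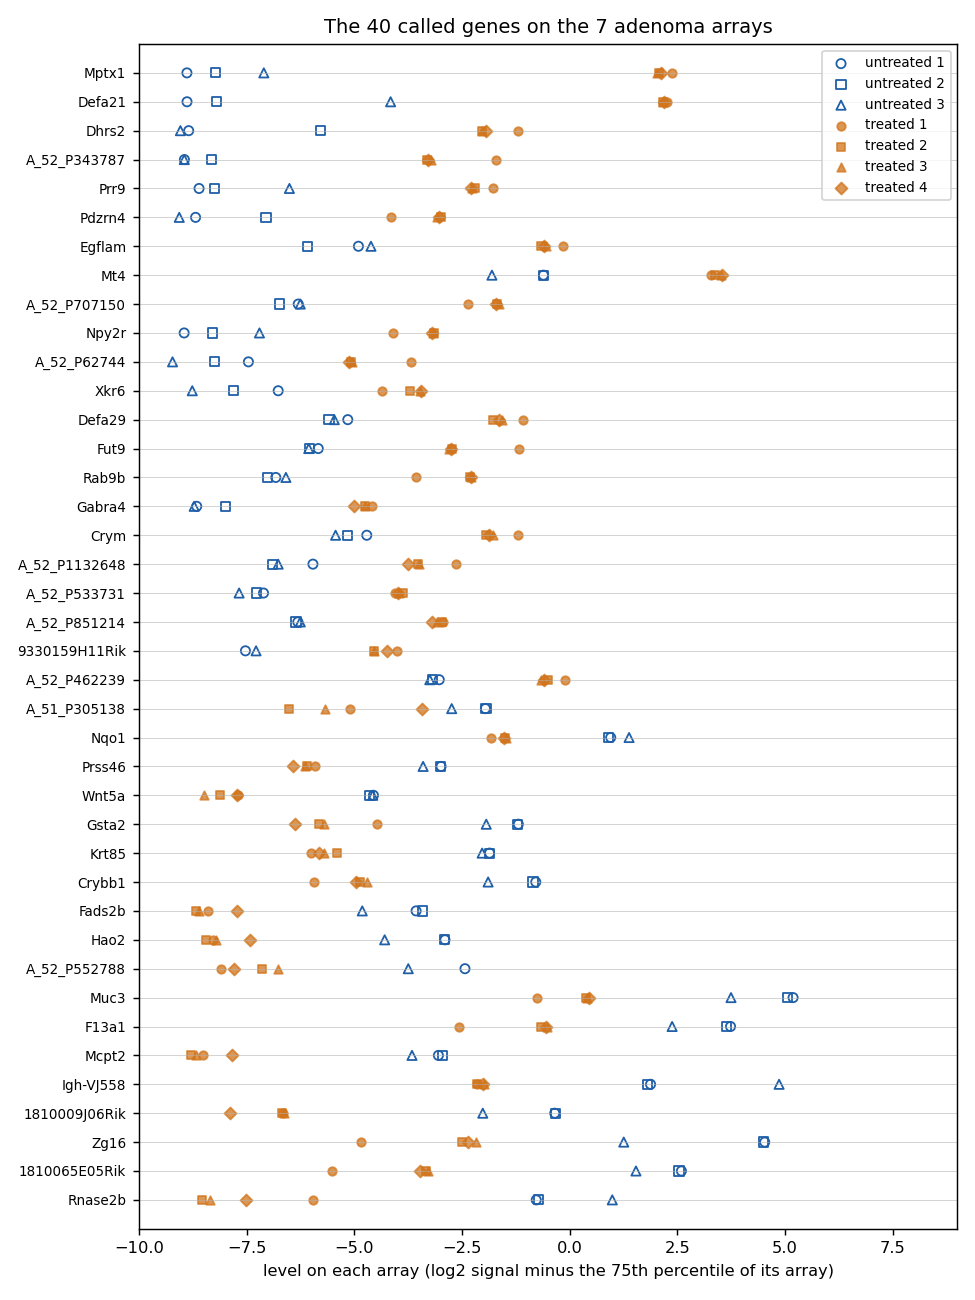
Levels of the 40 called genes on each adenoma array, as log2 signal minus the 75th percentile of the array (x axis), ordered by the treated minus untreated difference. Open blue symbols are the 3 untreated arrays and filled orange symbols the 4 treated arrays; the groups do not overlap for any of the 40, and treated arrays 2, 3 and 4 lie close together as near-identical arrays. Signals below about -6 are near the background of the arrays.

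Markers of mucus-secreting goblet cells had differences below 0, and Zg16 among them was called. All 11 tested goblet markers had a difference below 0, against 47.7% of tested genes, with a median of -1.98, and 9 of the 11 did not overlap between groups. Zg16 is a lectin that goblet cells secrete into the mucus layer. Its level was 4.53, 4.50 and 1.25 on the untreated arrays and -4.85, -2.51, -2.16 and -2.36 on the treated arrays. Every treated array lay below every untreated array, by the widest margin on treated array 1, and the difference was -6.48 ± 1.02 (SE, adjusted p = 0.0387, limma). In the epithelium Zg16 stood at 6.64 ± 0.26 (SD, n = 3) and 6.70 ± 0.34 (SD, n = 3), so the treated adenomas were farther from normal epithelium than the untreated ones. The adenoma SDs of Zg16 were 2.30 untreated and 1.77 treated, wider than these epithelial SDs, which enter the pooled spread behind its SE.

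The gel-forming mucin Muc2, the main structural component of colonic mucus, had levels of 4.31, 4.23 and 5.92 without treatment and -2.25, 1.46, 1.56 and 1.53 with it. The groups did not overlap, but the difference of -5.46 missed the threshold (adjusted p = 0.0993, limma). Retnlb, a resistin-like protein secreted by goblet cells, read 5.91, 5.61 and 5.0 on the untreated and -1.45, -0.06, -0.14 and -0.09 on the treated arrays. Its difference of -6.15 had an SE of 2.29 (adjusted p = 0.338). Agr2, a protein disulfide isomerase needed for mucin folding, differed by -1.93 (adjusted p = 0.136), and the kallikrein Klk1 by -3.40 (adjusted p = 0.143), without overlap between groups in either case. The summed signal of 13 goblet markers was 286 to 318 on the untreated and 108 to 170 on the treated arrays, in units of the 75th percentile. In bulk material like this, fewer cells of a type and less RNA per cell cannot be told apart.

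Among the membrane-bound mucins of the absorptive surface 1 gene was called. Muc3, the major brush border mucin, was called lower: it read 5.18, 5.05 and 3.74 on the untreated and -0.76, 0.38, 0.41 and 0.46 on the treated arrays. The difference was -4.60 ± 0.61 (SE, adjusted p = 0.0329, limma), and in the epithelium the gene stood at 6.49 and 6.41. Muc4 differed by -2.09 (adjusted p = 0.391), with -5.03, -3.77, -3.04 and 0.87 at 4 other probes, the last of them dim in the untreated group. Muc13 differed by -0.60 (adjusted p = 0.796), and Muc20 was at -0.08. Of the 4 tested mucins of this list, Muc3 alone was called.

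Transcripts of absorptive colonocytes gave a looser picture. Of 19 tested markers 14 were below 0, with a median of -0.94 and a range of -4.47 to 3.49; 9 were lower without overlap and none was called. Slc26a3, the chloride-bicarbonate exchanger of the colon surface, read -1.82, -1.84 and -4.51 on the untreated arrays and between -7.05 and -5.61 on the treated arrays, where only 2 of 4 values were above background. Its level in the epithelium was 5.95 and 5.38, far above both adenoma groups. Fabp2, the intestinal fatty acid binding protein, had a difference of -4.62 (adjusted p = 0.226) with the groups apart.

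The intestinal transcription factor Cdx2 read 3.90, 3.85 and 3.29 on the untreated arrays and -2.96, -0.30, -0.29 and -0.20 on the treated arrays. The untreated adenomas lay at the level of the epithelium (3.42 and 3.85) and the treated adenomas below it, with a difference of -5.20 ± 1.18 (SE, adjusted p = 0.143). Krt20, by contrast, was lower on treated array 1 (-1.51) than elsewhere, but treated arrays 2 to 4 (2.40 to 2.50) exceeded untreated array 3 (1.98). Its difference of -3.20 therefore rested on treated array 1 and on untreated arrays 1 and 2, at 5.47 and 5.29.

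Nqo1 and Gsta2, genes of the electrophile and glutathione response, fell. Nqo1, a quinone reductase that is a standard target of the transcription factor Nrf2, had a narrow spread in both groups. Its levels were 0.95, 0.90 and 1.38 on the untreated arrays and -1.83, -1.51, -1.47 and -1.53 on the treated arrays. The groups were far apart, and the difference was -2.82 ± 0.43 (SE, adjusted p = 0.0364, limma). Normal epithelium stood at 1.24 and 1.27, the level of the untreated adenomas. Of 21 tested Nrf2 antioxidant genes 19 were below 0 (median -0.61), and 11 were lower without overlap. The summed signal of these 21 genes overlapped between groups, at 411 to 459.5 untreated and 269 to 463 treated, in units of the 75th percentile.

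Gsta2, an alpha-class glutathione S-transferase, was also called: -1.19, -1.22 and -1.94 without treatment, and -4.48, -5.81, -5.71 and -6.38 with it, a difference of -3.65 ± 0.56 (SE, adjusted p = 0.0364, limma). Its neighbour in sequence Gsta1 differed by -3.02 (adjusted p = 0.0575), and the probes of the pair shared a run of 20 bases, so their signals may not be independent. Gclm, the regulatory subunit of glutathione synthesis, differed by -2.10 (adjusted p = 0.437) and Prdx1, a peroxiredoxin, by -0.91 (adjusted p = 0.485), both without overlap. Hmox1, a heme oxygenase often induced by stress, overlapped: it was at -1.38 on treated array 1 and 1.54 to 1.83 on the other treated arrays, against 1.20 to 2.64. Among 20 tested xenobiotic metabolism genes 13 were below 0 and 10 were lower without overlap (median -1.11). Ces2e, a carboxylesterase, differed by -3.24 and Abcb1a, a drug efflux pump, by -2.66, and neither was called.

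Among the granule proteases of mucosal mast cells, the chymase Mcpt2 was called. It read -3.05, -2.95 and -3.66 on the untreated arrays and was not well above background on any treated array. Its level was at least 7.72-fold lower in the treated group (adjusted p = 0.0105, limma). A fold written as "at least" sets the mean of the measured group against the array background of the other. The adjusted p given with such a fold belongs to the full log2 difference, which uses signals below background. For Mcpt2 that difference was -5.14. With normexp background correction it was -2.72, and the call was lost (adjusted p = 0.0503, limma). Mcpt1 read 1.25, 1.20 and 0.54 without treatment and between -5.26 and -2.85 with it (difference -4.80, adjusted p = 0.205). Mcpt4, a further chymase, differed by -3.09 with its main probe and by -0.54 with a second. The tryptase Tpsab1 was above background only on untreated arrays. Of 9 tested mast cell markers 7 were below 0 (median -3.08), 6 without overlap. The other 2 were above 0, up to 2.40, and both were higher without overlap. The summed signal of the list was 7.95 to 8.81 untreated and 6.68 to 7.67 treated, with Hdc, the histamine-forming enzyme, as the strongest member. Without Hdc it was 5.34 to 5.51 against 1.61 to 2.48, so Hdc carried most of the treated sum but not of the untreated sum.

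Rnase2b, a ribonuclease of the eosinophil-associated family, was called lower, with levels of -0.78, -0.72 and 0.99 on the untreated arrays and none well above background on the treated arrays. It was at least 73.0-fold lower (adjusted p = 0.0337, limma). The related Rnase2a read -1.24, -1.35 and 0.55 against -4.22 to -3.40 and was not called (adjusted p = 0.154). Of the eosinophil markers only 3 were tested, and the granule proteins Prg2 and Prg3, which define the cell, were below background on every adenoma array. F13a1, the catalytic subunit of coagulation factor XIII, which macrophages make, was called lower: 3.73, 3.64 and 2.38 without treatment and -2.57, -0.67, -0.52 and -0.56 with it (difference -4.61 ± 0.69 SE, adjusted p = 0.0337, limma). Treated arrays 2 to 4 stood near the epithelium, at -0.46 and -0.48, and treated array 1 lay below it. The direction of F13a1 was not that of most macrophage markers. Of 13 tested, 9 were above 0, against 52.3% of tested genes, among them Aif1, an actin-binding protein of macrophages, at 3.22 (adjusted p = 0.135), and C1qc, a complement subunit, at 1.45 (adjusted p = 0.44). The list median was only 0.23, with 4 genes higher and 1 lower without overlap. Its median level was -0.57 on treated array 1 and 0.69 on treated arrays 2 to 4, against -0.07 and -0.21 in the untreated samples. The summed signal overlapped, at 74.0 to 83.4 untreated and 68.6 to 130.6 treated.

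Igh-VJ558, an immunoglobulin heavy chain feature, fell by 5.45 on the log2 scale (adjusted p = 0.0337, limma). The untreated arrays read 1.88, 1.80 and 4.86, and the treated arrays lay between -2.16 and -1.99, while the epithelium stood at 6.56 and 6.57. Of 9 probes with this name, the 3 that were above background on the 7 arrays gave differences of -5.45, -5.79 and -6.24. The remaining probes were at or near background. Jchain, which links secreted immunoglobulins into polymers, differed by -3.51 (adjusted p = 0.124), with groups apart. The 8 tested markers of B and plasma cells were split, 4 above and 4 below 0. Their summed signal was 1.46 to 2.01 untreated and 0.966 to 1.16 treated. The part of cell composition in these differences was not tested.

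The other called genes that fell were of mixed function. Hao2, a peroxisomal hydroxyacid oxidase, read -2.90, -2.90 and -4.30 on the untreated arrays and was below background on the treated arrays, at least 6.42-fold lower, although the epithelium stood at 4.59 and 4.39. Fads2b, a desaturase-like gene, was at least 4.36-fold lower, but its second probe was below background on every adenoma array. Wnt5a, a Wnt ligand that acts mostly without beta-catenin, was at -4.56, -4.64 and -4.57 and not well above background with treatment, at least 3.23-fold lower. Crybb1, a crystallin, fell by 4.04 with its main probe and by 5.09 with the second. Krt85, a hair keratin, fell by 3.87 and the serine protease Prss46 by 2.87. Adjusted p-values of these 6 genes lay between 0.0136 and 0.0387 (limma). A pair of cDNA clones fell as well: 1810065E05Rik from 2.59, 2.54 and 1.54 to between -5.51 and -3.28 (difference -6.49, adjusted p = 0.0105), and 1810009J06Rik to background, at least 34.3-fold lower (adjusted p = 0.00974).

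Mptx1, a mucosal pentraxin of the colon epithelium, gave the smallest adjusted p. It was not well above background on any untreated array, and read 2.38, 2.07, 2.03 and 2.12 on the treated arrays. The 4 treated values lay close together, and the level was at least 472-fold higher (adjusted p = 9.03e-05, limma). Its probe lies at chromosome 1, 174299277 to 174299336 (plus strand, mm7). Epithelium of tumor-free and tumor-bearing mice stood at 6.48 and 6.55, so the treated adenomas lay between the untreated adenomas and the epithelium. The Reg lectins tested beside it did not share the direction: Reg3b, an antimicrobial lectin, differed by -1.79 and Reg4 by -1.10, neither called.

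Other genes with high levels in the epithelium were also higher in the treated adenomas without passing the threshold. Pyy, the peptide YY hormone of colonic L cells, read -0.34, -0.35 and 2.70 on the untreated and 6.06, 5.42, 5.48 and 5.56 on the treated arrays. The treated arrays reached the level of the epithelium (5.96 and 6.04), with a difference of 4.60 ± 0.87 (SE, adjusted p = 0.0891, limma). The enteroendocrine list as a whole did not move with Pyy. Its 10 tested members had a median of 0.17, Cck, the cholecystokinin hormone, differed by -3.94 (adjusted p = 0.1), and Chga, a general granule protein of these cells, by 0.51. The summed signal of 15 members was 3.72 to 9.10 untreated and 44.9 to 69.0 treated, and 2.62 to 2.95 against 2.05 to 2.48 without Pyy.

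Hoxb13, a homeobox gene of the distal colon, read -6.31, -8.16 and 1.44 on the untreated arrays and 3.19 to 3.39 on the treated arrays, with the epithelium at 4.79 and 3.83. Fxyd4, a regulator of the sodium pump, read -7.72, -6.88 and -4.27 and then 0.49 to 2.07. The untreated arrays were widely spread for Hoxb13, and SEs of 2.28 and 2.96 went with differences of 6.23 and 7.12 (adjusted p = 0.334 and 0.386, limma). For Fxyd4 the tumor-bearing epithelium, which enters the pooled spread, had an SD of 6.21. The adenoma SDs of Fxyd4 were 2.14 untreated and 1.02 treated. Abcg5, part of a sterol efflux pump, had a difference of 4.90 with an SE of 2.40. Its SD was 4.84 in the tumor-bearing epithelium, against 0.99 and 0.23 in the untreated and treated adenomas. The epithelial levels of Abcg5 were 0.84 (tumor-free) and -0.31 (tumor-bearing), with the treated adenomas at 0.37. In the opposite direction Car12, a membrane carbonic anhydrase, read -0.64, -0.60 and -0.40 without treatment and -8.38 to -5.46 with it, with only 2 treated values above background (difference -6.49, adjusted p = 0.224).

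**Figure D2:**
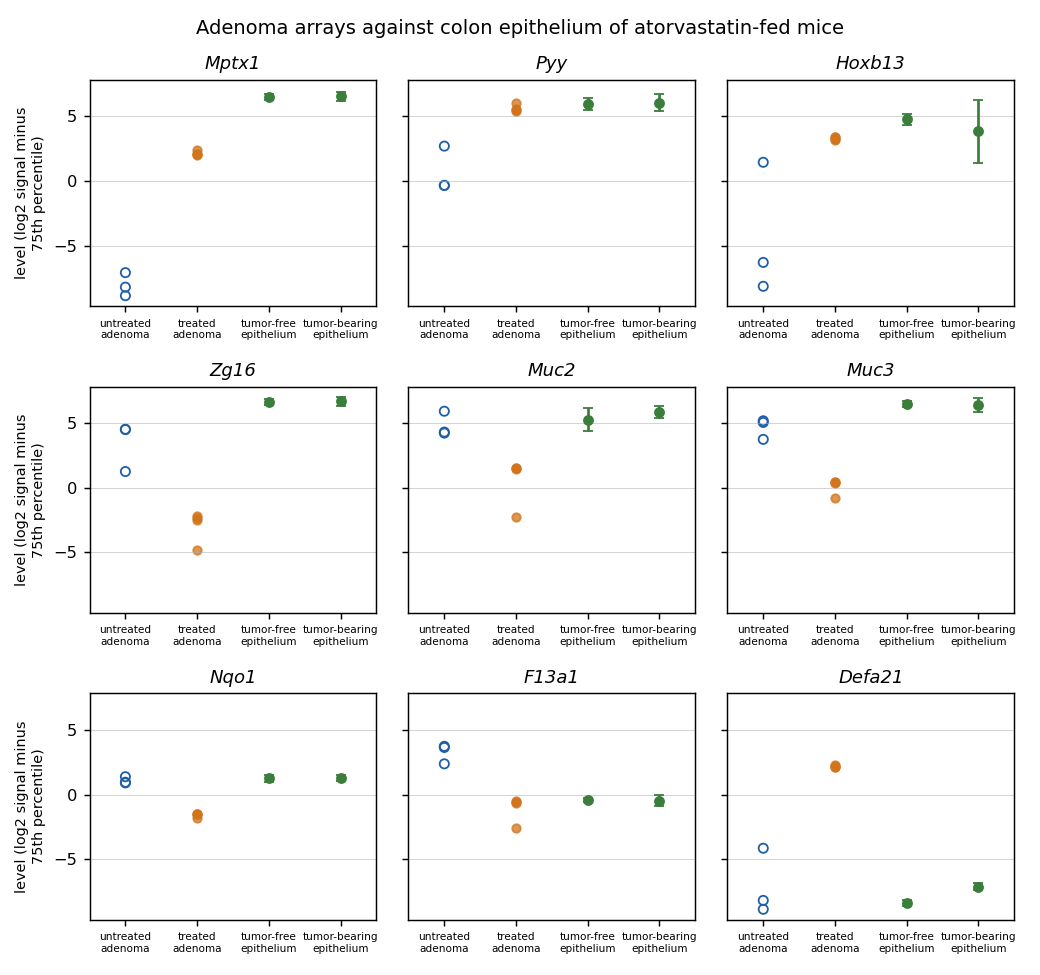
Levels of 9 genes (log2 signal minus the 75th percentile) on the 3 untreated (open blue) and 4 treated (orange) adenoma arrays, beside the mean ± SD of 3 samples each of tumor-free and tumor-bearing epithelium from mice given atorvastatin (green). Mptx1, Pyy and Hoxb13 are high in the epithelium and higher in the treated than in the untreated adenomas; Zg16, Muc2 and Muc3 are high in the epithelium and lower in the treated adenomas; Defa21 is at background in the epithelium.

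Alpha-defensins, the antimicrobial peptides of Paneth cells, were detected in both adenoma groups, and 2 of them rose with treatment. Defa21 read -8.88, -8.20 and -4.16 on the untreated arrays and 2.25, 2.16, 2.16 and 2.19 on the treated arrays (difference 8.56 ± 1.07 SE, adjusted p = 0.024, limma). Only untreated array 3 had a signal above background among the untreated. The SD of Defa21 was 3.10 untreated and 0.06 treated, against 0.23 and 0.25 in the epithelium, where it was never above background. Its SE pools the spread of all these groups. Defa29 read -5.15, -5.59 and -5.46 and then -1.08, -1.77, -1.58 and -1.65 (difference 4.04 ± 0.48 SE, adjusted p = 0.0267), and its second probe gave 3.78.

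The other family members were not called. The array held 16 probes for 13 genes named as alpha-defensins. Of the 10 probes above background on the 7 adenoma arrays, 7 were higher in the treated group without overlap and none was lower. Defa31 read -6.31, -5.72 and -6.31 on the untreated and -2.57 to -3.47 on the treated arrays, a difference of 3.26 without overlap. Defcr4 differed by 2.14, Defa22 by 1.56, Defa23 by 1.55 and Defa20 by 1.45, while Defa1 differed by 0.20 and Defcr6 by -0.002, with treated array 1 below the untreated arrays for both. Probes of near-identical genes can take up each other's transcripts, so single members are uncertain. The Defa22 and Defa21 probes printed above lie 621 bases apart on the same strand. The Defa22 probe read -0.02, -0.03 and -1.86 on the untreated arrays, where the Defa21 probe was near background on arrays 1 and 2. On the tumor-free and tumor-bearing epithelium arrays the Defa21 probe was never above background, and the Defa22 probe was above it on 1 array. Lyz1, the lysozyme of Paneth cells, did not rise: it differed by -0.77 (adjusted p = 0.59), with levels between 4.31 and 5.90.

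Mt4, a metallothionein known from stratified epithelia, rose by 4.59 ± 0.66 (SE, adjusted p = 0.0329, limma). The untreated arrays read -0.61, -0.61 and -1.81 and the treated arrays 3.29, 3.38, 3.51 and 3.54; a second probe gave 4.85. The widely expressed metallothioneins did not share the rise. Mt1 differed by -0.02 and Mt2 by 0.52, and Mt3 was higher only on treated arrays 2 to 4 (3.87 to 4.15), with 0.09 on treated array 1. The gene Mt4 was lower in the epithelium (-3.64 and -3.30) than in either adenoma group.

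The other called genes that rose had low levels in the untreated adenomas. Dhrs2, a short-chain dehydrogenase, rose by 6.58, from -8.84, -5.79 and -9.04 to -1.19, -2.03, -2.03 and -1.94 (SE 0.64, adjusted p = 0.00974, limma). Only 1 of the 3 untreated arrays was above background for Dhrs2, so the size depends on the background correction: with normexp correction the difference was 4.41, and the call held (adjusted p = 0.00711, limma). Crym, a thyroid hormone-binding protein, rose by 3.64, from between -5.43 and -4.71 to between -1.94 and -1.21, toward its epithelial levels of 0.47 and 0.63. Fut9, a fucosyltransferase that makes the Lewis x sugar, rose by 4.03. Its 4 further probes were at or near background on the untreated arrays. Egflam, a matrix protein, rose by 4.67 with its main probe, but its second probe, which was above background on few arrays, gave 0.64. Prr9, a proline-rich protein, rose by 5.44 and the small GTPase Rab9b by 3.82, the latter with 0.98 at a second, dim probe. Each was above background on 1 of 3 untreated arrays. With normexp correction the differences were 3.61 for Prr9, still called (adjusted p = 0.0187, limma), and 2.60 for Rab9b, no longer called (adjusted p = 0.0635). Npy2r, a receptor for the Pyy peptide family, was at least 8.10-fold higher, Pdzrn4 8.37-fold, Xkr6 6.49-fold and the GABA receptor subunit Gabra4 3.83-fold, each as a lower bound. The unnamed probes A_52_P1132648 and A_52_P533731 also rose. They lie on chromosome 17 within a stretch that starts at 88913314 and ends at 88932065 (mm7).

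No gene of the pathways that the drugs block was called. Of 20 cholesterol synthesis genes 11 were above and 9 below 0, and the median was 0.09. Hmgcs1, an early enzyme of the pathway, read 4.88, 4.83 and 4.35 on the untreated and 5.37, 5.32, 5.42 and 5.45 on the treated arrays. The groups did not overlap, but the difference of 0.78 was not called (adjusted p = 0.59, limma), and Fdps, which makes the prenyl donor farnesyl diphosphate, was at -2.0 (adjusted p = 0.415), with 0.34 at a second probe. Abca1, a cholesterol efflux pump, differed by 1.86 (adjusted p = 0.276). Among 13 prenylation enzymes and GTPases 9 were below 0, with Hras at -1.31 and the geranylgeranyl transferase subunit Rabggtb at -1.73. Rhoa was at -1.13 with one probe and at 0.29 with another.

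For the cyclooxygenases, Ptgs1 read 1.22, 1.26 and 0.82 on the untreated arrays and 1.98 to 2.53 on the treated arrays, with a difference of 1.27 (adjusted p = 0.463). Ptgs2, the inducible form, read 1.29, 1.24 and -0.37, and then 0.71 on treated array 1 and -2.58 to -2.44 on treated arrays 2 to 4. The 2 treated samples lay on either side of the third untreated array, and the difference of -1.35 had an SE of 1.32. Hpgd, which breaks prostaglandins down, was at 0.01, and the receptor Ptger4 at -0.05. Of 16 tested prostanoid genes 11 were below 0 (median -0.38) and none was called.

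Wnt target genes were not lower as a group. Of 24, 16 were above 0 (median 0.41), 10 were higher and 5 lower without overlap, and none was called. Axin2, a direct feedback target, was 0.87 higher, Lgr5, a stem cell receptor, 0.29, and the Wnt inhibitor Apcdd1 1.58. Myc read 4.32, 4.27 and 4.60 on the untreated and 2.72, 3.15, 3.14 and 3.16 on the treated arrays. Those groups did not overlap, but the difference of -1.52 was not called (adjusted p = 0.231, limma). The ephrin receptors Ephb2 and Ephb3, which position cells along the crypt, differed by -1.78 and -1.37.

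Cell cycle genes were mostly slightly lower: 29 of 35 were below 0 (median -0.47), 16 were lower without overlap, none was higher without overlap and none was called. Ube2c, a mitotic ubiquitin enzyme, read 3.54, 3.46 and 4.18 and then 1.40 to 2.55 (difference -1.89, adjusted p = 0.231), and cyclin Ccnb1 differed by -1.42. Mki67, the proliferation marker, was at 0.28 and Birc5 at 0.35, with overlapping arrays. Immediate early genes, which respond quickly to growth signals, showed 12 of 15 below 0 (median -1.09) and 11 lower without overlap. Fos read 4.10, 4.04 and 3.35 and then 2.36, 1.53, 1.41 and 1.38 (difference -1.81, adjusted p = 0.365).

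Regulators of apoptosis were split, 13 above and 8 below 0 among 21. Bcl2, which blocks mitochondrial cell death, read -0.04, -0.03 and 0.03 on the untreated and 2.13, 2.29, 2.21 and 2.23 on the treated arrays. Both groups were narrow, yet with the pooled spread the difference of 2.19 ± 0.45 (SE) was not called (adjusted p = 0.11, limma), and 2 further probes that were above background on the 7 arrays gave 0.39 and 1.25. Bax, its pro-death counterpart, differed by -2.61 (adjusted p = 0.268), with treated array 1 at -3.16 and treated arrays 2 to 4 at -0.70 to -0.56. The nuclear receptor Pparg, which promotes differentiation of colonocytes, read 1.81, 1.87 and 2.46 and then 0.03 to 0.29 (difference -2.0, adjusted p = 0.123).

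**Figure D3:**
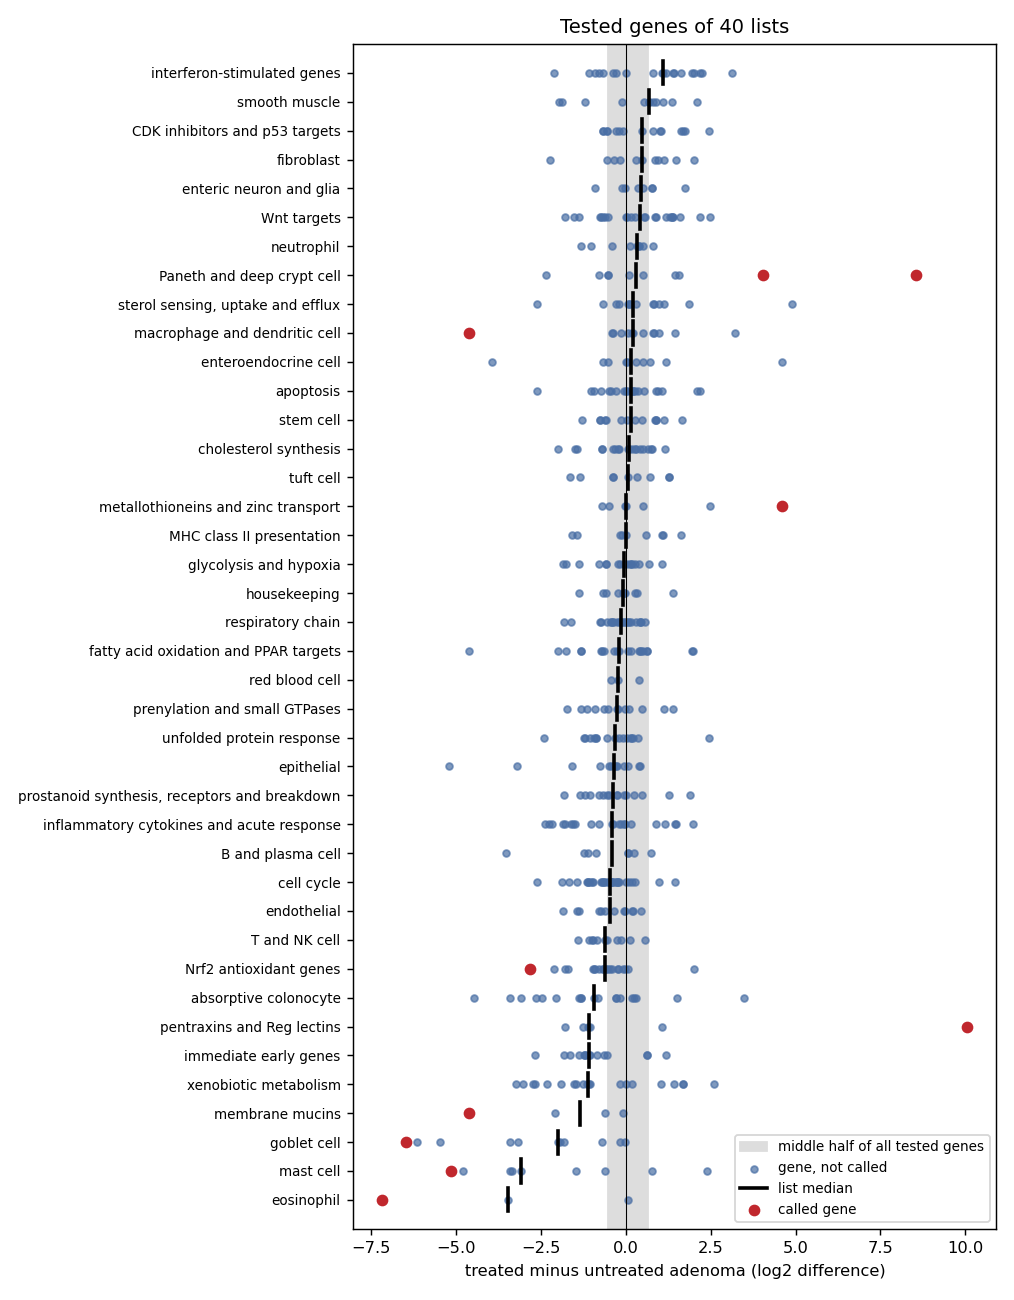
Treated minus untreated log2 differences (x axis) of the tested genes of 40 lists, 22 of pathways and 18 of cell types. Each point is a gene, red points are called genes, black bars are list medians, and the grey band spans the quartiles of all tested genes (-0.53 to 0.64); the medians of the eosinophil, mast cell, goblet cell and membrane mucin lists lie farthest below the band.

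Some genes differed widely between the 2 treated samples. Of 20 tested interferon-stimulated genes 12 were above 0, with a median difference of 1.08, and 10 were higher without overlap, against 23.3% of tested genes, and none was lower without overlap. None was called. Interferon-stimulated genes had a median level of -1.57 on treated array 1 and 0.72 in the sample of treated arrays 2 to 4, against -1.36 and -1.37 in the untreated samples. Ifit1 read -2.89, -2.87 and -2.16 on the untreated arrays, -0.99 on treated array 1 and 0.33 to 0.55 on the others. Iigp1 read -1.20, -1.19 and -1.47 on the untreated arrays, -1.04 on treated array 1 and 1.55 to 1.67 on the others. Neither gene overlapped between groups. The tight junction gene Cldn4 ran from -4.53 on treated array 1 to 2.06 on treated array 3, and the neuronal ubiquitin hydrolase Uchl1 from -2.79 to 0.25. The fibroblast collagen Col1a1 read 3.33 on treated array 1 and 4.78 to 4.89 on the others, against 1.44 to 2.72 untreated, without overlap. None of these genes was called.

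Among markers of stromal cells, 8 of 12 smooth muscle genes were above 0 (median 0.68), 6 without overlap. Their summed signal was 16.6 to 18.7 untreated and 33.6 to 39.3 treated. Acta2, smooth muscle actin, was 1.10 higher with its main probe and at -2.71, -1.13 and 0.51 with 3 others, while Actg2, the enteric form, was at -1.96. Fibroblast markers had a median of 0.47 and endothelial markers of -0.48, with summed signals that overlapped between groups. T and NK cell markers were low in both groups (summed signal 2.18 to 2.46 and 1.07 to 2.75). The part of admixed stroma in the differences above was not tested.

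The adenomas could also be compared within scan dates. Untreated array 2 and treated array 1 shared a date, and untreated array 3 shared another with treated arrays 3 and 4, so the 2 differences have no array in common. Across 16820 genes with both values, 63.4% had the same sign and the differences correlated with an r of 0.424 (a description across genes, which are not independent replicates). Zg16 was at -9.35 and -3.52, Nqo1 at -2.73 and -2.88, Mptx1 at 10.6 and 9.18 and Defa21 at 10.4 and 6.33. All 38 called genes with both values kept their sign, which the calling itself favours, since it used the same arrays.

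**Figure D4:**
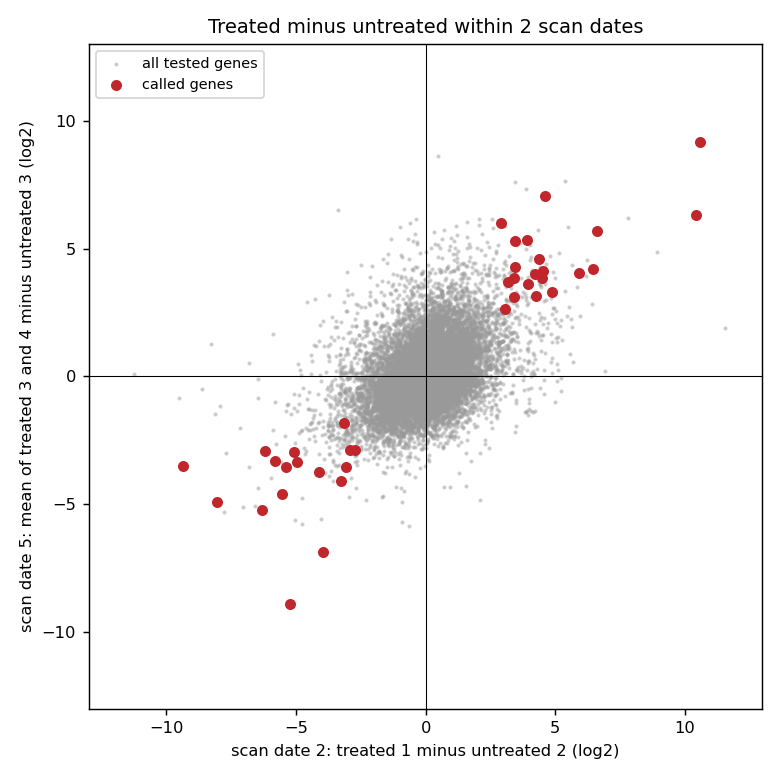
Treated minus untreated log2 differences within each of 2 scan dates, treated 1 minus untreated 2 (x axis) and the mean of treated 3 and 4 minus untreated 3 (y axis), for 16820 tested genes (grey) and the 38 called genes with both values (red). The called genes lie to the lower left and upper right, and the grey cloud is elongated along the same diagonal (r = 0.424).

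Set beside the epithelium, the treated adenomas were nearer than the untreated to both epithelium groups for 41.7% of tested genes. Among the called genes the count was 11 of 40 (27.5%). It was 3 of 22 for genes that rose and 8 of 18 for genes that fell. Of the 18 genes that fell, 9 already lay below both epithelium groups in the untreated adenomas, Zg16, Muc3, Hao2 and Gsta2 among them. Of the 22 that rose, 10 were not above background on any epithelium array, which held for Defa21, Dhrs2 and Gabra4. These levels come from mice given atorvastatin, and this drug differs between the epithelium and the untreated adenomas.

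The number of calls rested on few samples. Without treated array 1 only Mptx1 remained called, and without untreated array 3 the count was 15, of which 12 were among the 40. Without the untreated sample of arrays 1 and 2 it was 4 (Defa21, Dhrs2, Igh-VJ558 and Mptx1), and without the treated sample of arrays 2 to 4 it was 2 (Mptx1 and the clone 1810065E05Rik). Fitted on the adenomas alone, limma called only Mptx1. Leaving out a near-identical pair of epithelium arrays, which carry different labels, left Dhrs2, Mcpt2 and Mptx1. With normexp correction 17 of the 28 called genes with a symbol remained called; Fads2b, Fut9, Gabra4, Hao2, Mcpt2, Npy2r, Pdzrn4, Prss46, Rab9b, Wnt5a and Xkr6 did not, with adjusted p-values from 0.0502 (Fut9) to 0.209 (Wnt5a). Each of the 40 genes kept its direction in every one of 24 alternative settings in which it was tested. The calling itself favours this, since the settings reuse the same arrays and none of the 40 overlapped between groups.

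**Figure D5:**
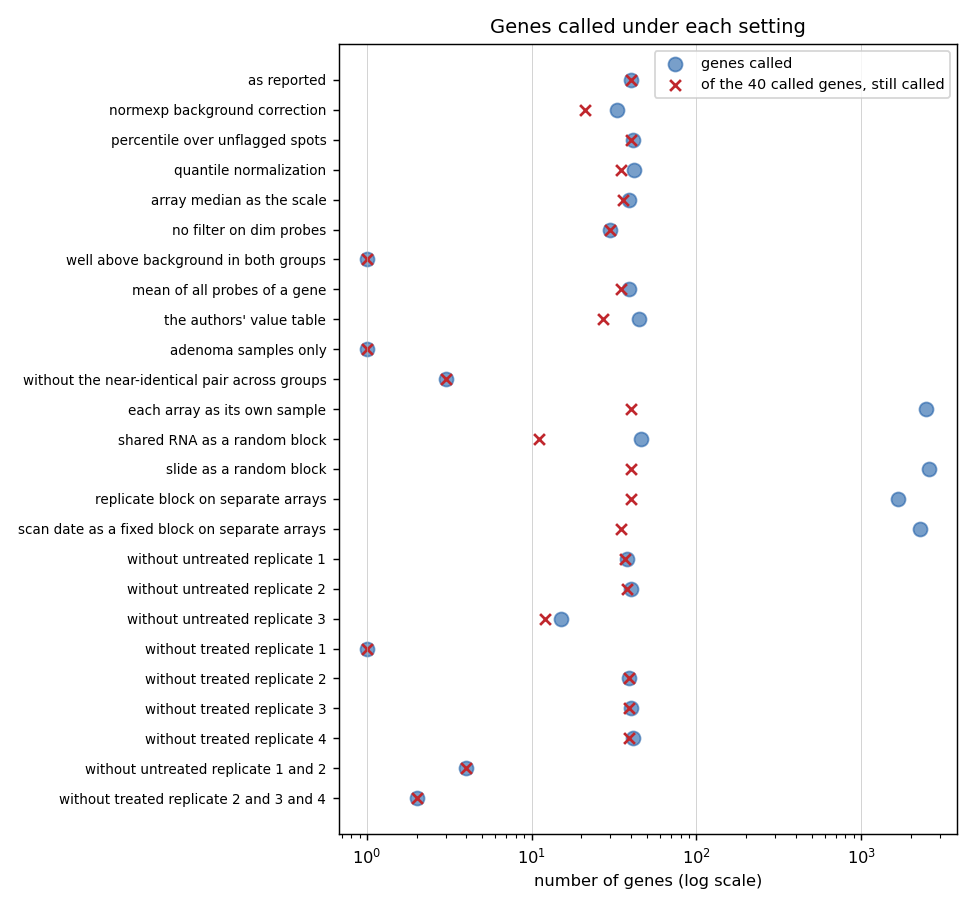
Number of genes called with limma at an adjusted p below 0.05 (blue circles, log scale) under each processing setting or left-out array, and how many of the 40 called genes are among them (red crosses). The count falls to 1 without treated replicate 1 or with the adenoma samples alone, and rises to between 1676 and 2593 where near-identical arrays are entered as separate samples with no block or with a slide, replicate or date block.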

How the data were processed

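Each of 15 deposited samples was hybridised to its own array (Agilent, Cy3 only, mouse genome design, 45018 spots). The authors' scanner files, read with Agilent Feature Extraction 9.5.3 per the submitters' processing notes, hold a processed intensity for each spot that was background-subtracted within the array, per the file headers. Their deposited value table holds log2 values and served as an alternative; its columns for the tumor-bearing epithelium matched the scanner files of that group in reverse order.

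The processed intensity was taken to log2, and the 75th percentile over the 43379 non-control spots of the array was subtracted. Spots marked as outliers were left out. Of the 41174 probes, 22951 were named through a RefSeq accession, 6659 by symbol and 3109 by synonym (RefSeq table of GRCm38.p6, names only), 1461 kept the file's name and 6994 had none. Coordinates are those of the array design (mm7). The probe with the highest mean stood for a gene. Near-identical arrays were averaged, which left 10 samples. All 4 groups were fitted with limma 3.58.1 in R 4.3.3 (lmFit and eBayes, two-sided, Benjamini-Hochberg, 6 residual and 3.9 prior degrees of freedom). A gene was tested when well above background on every unflagged array of at least 1 adenoma group, with at least 2 unflagged arrays per group. The fit was tested on simulated arrays.

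Named genes were those called with a symbol, a panel of 22 drug target, Wnt and proliferation genes, up to 4 members of each list with the highest moderated t plus its first gene, and the 5 largest differences per direction that were not called and had no overlap. Clones, unnamed probes and further alpha-defensins were added after their values were seen. The arrays compared and the 40 gene lists were chosen with earlier results of these data known. Alternatives covered background correction, scaling, filters, probes, blocks and left-out arrays; the percentile over unflagged spots was added after the data were seen. The number of arrays limits the precision. Values of some genes are not reported here.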

Additional observations from a re-analysis of the deposited data

How the results depend on the processing

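The called genes numbered 40, 22 higher and 18 lower. Normexp correction, quantile or median scaling, probe means, the authors' table, shared RNA as a random block and the percentile over unflagged spots gave 33 to 46, of which 11 to 40 were among the 40. With no filter on dim probes 30 were called, 11 of them lower. Requiring signal above background in both groups gave 1, with 0 higher and 1 lower, and tested 11 of the 40. The adenomas alone gave 1, with 1 higher and 0 lower. Without the near-identical epithelium pair 3 were called, 2 higher and 1 lower. Entering each array as a sample gave 2463 (1479 higher, 984 lower), the slide as a random block 2593 (1635 and 958) and the scan date as a fixed block 2263 (1200 and 1063); near-identical arrays then count as replicates. A replicate block on separate arrays gave 1676 (1010 and 666). Same-numbered treated and untreated arrays had correlations of 0.074, -0.019 and 0.128 between their deviations from the group means. Near-identical arrays in both groups make these values depend on each other. They therefore cannot show whether the labels' replicate numbers pair the samples. Leaving out 1 array gave between 1 and 41 calls, 1 to 23 higher and 0 to 19 lower. Leaving out a whole sample gave 4 (3 higher, 1 lower) without untreated arrays 1 and 2, and 2 (1 higher, 1 lower) without treated arrays 2 to 4; the lone sample was assumed to vary like the other groups. Of 40 lists, 24 had a median below 0; under the alternatives 869 list medians moved by less than the spread between samples and 171 by more. The percentile over unflagged spots moved the median of tested genes from 0.05 to 0.11. Array number limits precision, and depth has no counterpart on arrays.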

Other observations

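Of 22 inflammatory cytokine and acute response genes, 16 were below 0 (median -0.40) and 7 were lower without overlap. Il17a, a cytokine of type 17 immunity, read -2.65, -2.77 and -4.39 on the untreated arrays and between -6.52 and -4.39 on the treated arrays, where it was above background on 1 of 4. Il23a, which sustains the cells that make it, went the other way, with a difference of 1.16 (adjusted p = 0.419, limma) and no overlap. Neutrophil markers had a median of 0.33 over 9 genes, and MHC class II genes of -0.005 over 9, with H2-Aa at -1.44 and H2-DMb1 at 1.64.

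In energy metabolism 15 of 24 respiratory chain genes were below 0 (median -0.14). The complex II subunit Sdhb read 3.14, 3.02 and 3.33 without treatment and 1.79, 0.89, 1.07 and 1.01 with it (difference -1.82, adjusted p = 0.31). Glycolysis and hypoxia genes had a median of -0.04 over 17, with the carbonic anhydrase Car9 at -1.77, and fatty acid oxidation genes of -0.21 over 21. Genes of the unfolded protein response were mostly below 0 (11 of 17, median -0.31), but the chaperone Hyou1 read 1.87, 1.77 and 0.38 and then 3.20 to 3.94 (difference 2.44, adjusted p = 0.32).

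Stem cell markers had a median of 0.16 over 14 genes and tuft cell markers of 0.08 over 9. CDK inhibitors and p53 targets had a median of 0.47 over 15, with Sesn2 at 0.95 on treated array 1 and 2.76 to 2.82 on the other treated arrays. The medians of sterol sensing and efflux genes (0.23 over 14), housekeeping genes (-0.07 over 10), red blood cell markers (-0.22 over 3) and enteric neuron and glia markers (0.44 over 8) lay within the quartiles of all tested genes. The Paneth and deep crypt list, which holds Defa21 and Defa29, had a median of 0.30 over 10, the metallothionein list, which holds Mt4, of 0.01 over 7, and the pentraxin and Reg list, which holds Mptx1, of -1.07 over 6. T and NK cell markers had a median of -0.60 over 11 and B and plasma cell markers of -0.40 over 8.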
